A study of Homo sapiens with 4 samples.

Results

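The DDX5 peaks described here were found in BT549 cells where no Fra-1 peak lay nearby. They were selected on the deposited peak calls and positions themselves: DDX5 peaks called against input DNA, on chromosomes 1 to 22 and X, that overlapped no Fra-1 peak called against input and whose midpoint lay more than 5 kb from the midpoint of the nearest one. There were 2157 such peaks (the distant DDX5-only peaks) among 10762 DDX5 peaks on these chromosomes, and 10836 in the whole list. They made up 20.0% of the DDX5 peaks (95% exact binomial interval 19.3% to 20.8%). A further 1950 DDX5-only peaks lay within 5 kb of a Fra-1 peak (the close DDX5-only peaks), and 6655 overlapped one (the common peaks).

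BT549 is a breast cancer cell line without oestrogen receptor alpha, and the cells received no treatment. Chromatin immunoprecipitation and sequencing (ChIP-seq) gave 1 DDX5 library with a rabbit antibody from Abcam, 1 Fra-1 library, 1 library with normal rabbit IgG and 1 library of input DNA. Input DNA is chromatin that was not immunoprecipitated, and normal IgG is an antibody with no intended target. The study set out to separate binding events specific to each protein from events common to both. With 1 library per antibody there were no replicates, so no difference could be tested, and every interval given covers counting error only. The intervals treat peaks as independent, so they are too narrow where peaks lie in clusters. The depth of the libraries is unknown, since no read totals were among the sources.

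DDX5 is a DEAD-box RNA helicase, an enzyme that unwinds RNA with energy from ATP. It takes part in splicing and microRNA processing and also acts as a coactivator of transcription factors, among them nuclear receptors and AP-1. It is not known for recognising a DNA sequence of its own and is thought to reach chromatin through partner proteins and RNA. Fra-1, the product of FOSL1, is a Fos-family protein that binds DNA directly as a dimer with a Jun protein, so a DDX5 peak far from any Fra-1 peak is one at which this partner was not called.

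Distances to the nearest Fra-1 peak over input had a median of 27.9 kb (interquartile range 12.7 to 68.2 kb) and reached 2090 kb. Within 5 to 10 kb there were 372 of the distant DDX5-only peaks (17.2%), within 10 to 20 kb 476 (22.1%), within 20 to 50 kb 594 (27.5%) and within 50 to 100 kb 371 (17.2%). Another 316 (14.6%) lay 100 to 500 kb away, and 28 (1.30%) lay farther than that. Over successive doublings of distance, all DDX5-only peaks together were most numerous at 0.5 to 1 kb, with 660 peaks. They numbered 350 at 2 to 4 kb, 344 at 4 to 8 kb and 475 at 8 to 16 kb. The limit of 5 kb thus lay in the shallow dip between these 2 stretches of the distribution.

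**Figure D1:**
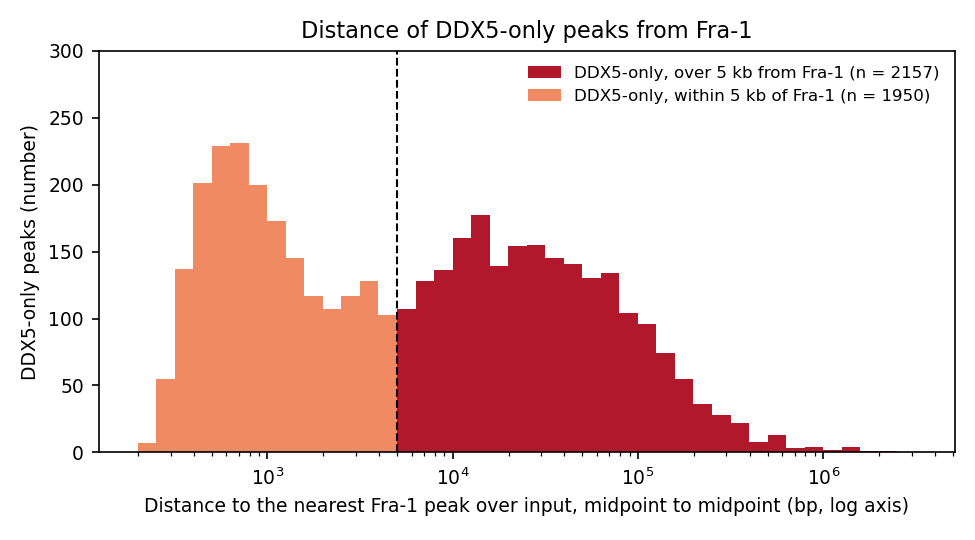
Number of DDX5-only peaks (vertical axis) by distance to the nearest Fra-1 peak over input in bp (horizontal log axis), with the distant peaks in dark red, the close ones in orange and the 5 kb limit as a dashed line. The 1950 close peaks gather below 2 kb and the 2157 distant ones spread over more than a 100-fold range, with a median of 27.9 kb.

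Peaks on both sides of the limit had similar values. The 5 peaks just inside it lay 5002 to 5043 bp from a Fra-1 midpoint and had pileups of 11, 17, 14, 15 and 26, where the pileup is the number of DDX5 fragments covering the summit. Their folds over input were 3.26, 4.78, 4.08, 4.35 and 5.10. The 5 close DDX5-only peaks just outside it lay 4976 to 4999.5 bp away, with pileups of 11, 17, 40, 13 and 15 and folds of 3.26, 4.06, 2.49, 3.81 and 3.61. Along the distance the median fold stayed within a narrow range, at 3.91 at 5 to 10 kb, 4.03 at 20 to 50 kb, 3.97 at 100 to 500 kb and 4.08 beyond 500 kb. The median pileup fell from 17 at 5 to 10 kb to 16 at 100 to 500 kb and 14 beyond. The median width was 239.5, 230 and 213 bp at these distances, and the median input level 3.26, 2.92 and 2.68 fragments.

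Most of the distant DDX5-only peaks were small. The median pileup was 17 fragments (interquartile range 14 to 19), the median fold over input 3.97 (3.53 to 4.39) and the median width 237 bp (206 to 293 bp). Exactly 200 bp, the smallest width in the list, was the width of 403 of them (18.7%), against 11.5% of the close and 4.70% of the common peaks. Close DDX5-only peaks had a median pileup of 18, a median fold of 3.97 and a median width of 256.5 bp. Common peaks were larger, with medians of 22 fragments, 4.35-fold and 324 bp. All 3 classes were cut from the lists that gave these values, so they are a description of what the rule selected.

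Few of the DDX5-only peaks of either class were strong. At least 4-fold was reached by 1053 distant peaks (48.8%), against 48.3% of close peaks and 58.9% of all DDX5 peaks. At least 5-fold was reached by 207 (9.60%), against 10.0% and 22.3%, and at least 6-fold by 35 (1.62%), against 2.15% and 9.04%. At least 8-fold was reached by 4 distant (0.185%) and 4 close peaks (0.205%), where all DDX5 peaks together had 2.30% and the common peaks 3.59%. Of the 4 distant ones, 3 lay on chromosome 14 and the other at chromosome 15, 65588310 to 65589000.

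Input DNA at the distant peaks was low. The input level is the number of control fragments expected at the peak, computed from pileup and fold. Its lowest value was 2.68, shared by 1907 of the 10762 DDX5 peaks. This value is taken here as the caller's background for the whole genome, which is an inference because the sources name no peak caller. At 764 of the 2157 distant peaks (35.4%, interval 33.4% to 37.5%) the input level was at that background. The share was 19.4% (17.7% to 21.2%) at the close and 11.5% (10.7% to 12.3%) at the common peaks. The medians of the input level were 3.16, 3.43 and 4.29 in the same order of classes. Input level differed between chromosomes, as given further on, and its part in which peaks were called was not tested.

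At the background input level the fold depends on the pileup alone, so the classes can be set side by side there. The 764 distant peaks at background had a median pileup of 14 (13 to 16) and a median fold of 4.08. The 378 close peaks at background had 15 (13 to 16) and 4.35-fold, and the 765 common peaks at background had 17 (15 to 21) and 4.89-fold. The quartile ranges of the distant and close peaks were the same for pileup, while the lower quartile of the common peaks lay above the median of the distant ones.

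**Figure D2:**
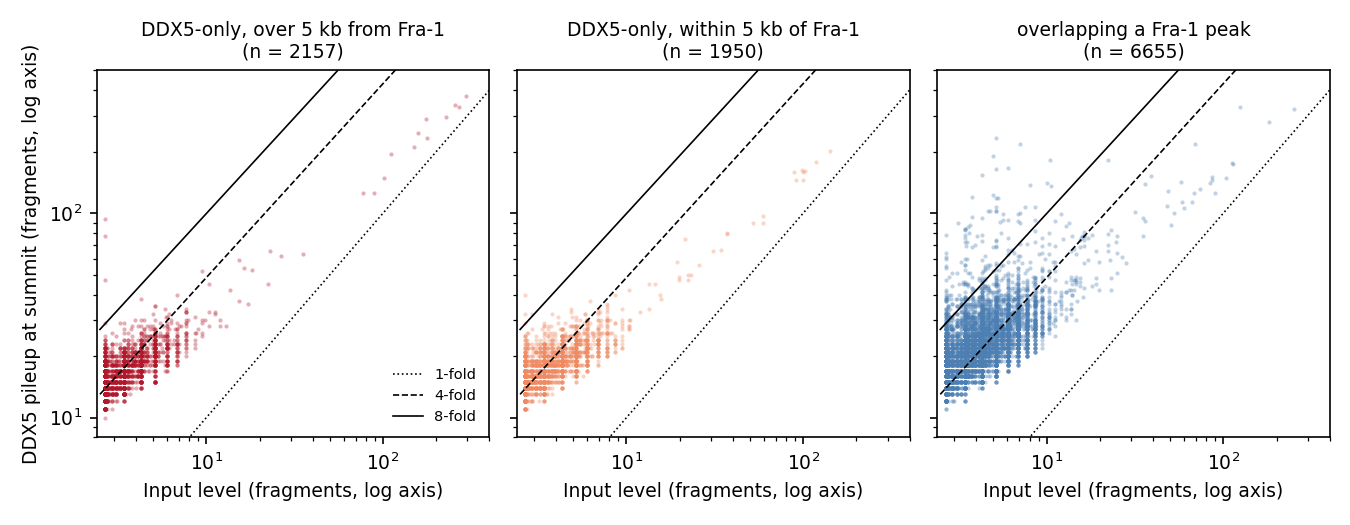
DDX5 pileup at the summit against input level, both in fragments on log axes, for distant DDX5-only, close DDX5-only and common peaks, 1 point per peak, with lines at 1-fold, 4-fold and 8-fold. The distant peaks crowd at the lowest input levels around 4-fold, with 4 points at 8-fold or above and a separate string of points near 1-fold at input levels above 50.

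A separate string of 12 distant peaks had input levels of 77.2 to 295 and pileups of 125 to 373, the highest pileups of the 2157, at folds of only 1.23 to 1.75. On chromosome 16 they lay at 46389009 to 46389242 (pileup 297, input level 227) and 46406394 to 46406715 (373 and 295). On chromosome 17, 4 of them stood between 22251448 and 22259995, with pileups of 233 to 332 and input levels of 157 to 270. The others were 3 on chromosome 4 between 49101489 and 49151700, and 1 each on chromosome 2 at 92320419 to 92320635, on X at 61713782 to 61714001 and on chromosome 10 at 42365160 to 42365381. All 12 lie in the broad region around the centromere, going by general knowledge of human chromosomes and not by an annotation used here. Such regions are known for satellite repeats present in very many copies. None of the 12 was called over IgG. Whether these peaks sit on such repeats was not analysed here. All 14 distant peaks under 2-fold had an input level of at least 22.3.

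The strongest of the distant DDX5-only peaks lay together on chromosome 14. The leading one, at 64727021 to 64727606, had a pileup of 94 DDX5 fragments at the background input level, which is 25.8-fold. The next was at 64749226 to 64749783, with a pileup of 77 and 21.2-fold, and the third at 64701577 to 64702007, with 47 and 13.0-fold. Both of these were again at the background input level. A peak at 64746618 to 64747017 had a pileup of 38 over an input level of 4.29 (7.37-fold), and one at 64735385 to 64735721 had 27 over 3.43 (6.32-fold). No other member of the 2157 apart from those of high input level had a pileup above 65.

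The 5 peaks lay within a stretch of less than 50 kb, and the genes there were not analysed here. Between them stood 2 close DDX5-only peaks, at 64716177 to 64716515 (6.11-fold) and 64723817 to 64724220 (11.1-fold). All 7 had the same nearest Fra-1 peak, which was of 3.73-fold over input. It lay 7.28 to 29.5 kb from the 5 distant peaks, and 3.68 and 3.99 kb from the 2 close ones. The nearest Fra-1 peak called over IgG was 128 to 175 kb from the 5 distant peaks. An 8th DDX5 peak, at 64805612 to 64805987, was distant too and small, with a pileup of 15 and 3.95-fold.

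Outside chromosome 14 the leading peaks, ranked by −log10 q, were spread over the genome. The first was at chromosome 9, 79186619 to 79186873, with a pileup of 52 over an input level of 9.44 (5.08-fold). It was followed by the peak on chromosome 15 with 29 fragments at the background input level (8.15-fold). A peak at chromosome 6, 44280916 to 44281205, had 29 fragments (7.04-fold), one at chromosome 20, 61904035 to 61904396, had 40 (5.21-fold), and one at chromosome 1, 3773555 to 3773896, had 35 (5.86-fold). The same values, 35 fragments and 5.86-fold, belonged to a peak at chromosome 5, 179780035 to 179780352. These peaks lay 8.68 to 47.7 kb from a Fra-1 peak.

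Next in order came chromosome 7, 56032135 to 56032465 (29 fragments, 6.77-fold), and chromosome 7, 157940224 to 157940595, where 59 fragments over an input level of 15.4 gave 3.65-fold. On chromosome 19 there were peaks at 55598594 to 55598886 (30 fragments, 6.27-fold) and 40314945 to 40315555 (26 fragments, 6.89-fold), and on chromosome 16 one at 23607467 to 23607812 (25 fragments, 7.07-fold). Chromosome 1 held peaks at 1259909 to 1260112 (30 fragments, 5.86-fold) and 10459373 to 10459682 (32 fragments, 5.52-fold). The peak at 157940224 on chromosome 7 was 214 kb from a Fra-1 peak and that at 1259909 on chromosome 1 only 5.16 kb.

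The remaining 7 of the leading 25 had 24 to 45 fragments and folds of 4.07 to 6.80. They stood on chromosome 9 at 139760809, 140069539 and 37485946, on chromosome 20 at 62526412 and 19997932, on chromosome 17 at 80278152 and on chromosome 22 at 30683772 (start positions). Of the 25, 5 lay on chromosome 14, 8 were at the background input level and 10 lay within 5 Mb of the first or last peak of their chromosome.

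The 5 peaks farthest from Fra-1 had 13 to 19 fragments and widths of 200 to 272 bp. The medians of all distant peaks were 17 fragments and 237 bp. The farthest, at chromosome 4, 133266265 to 133266536, lay 2090 kb from a Fra-1 peak and had 17 fragments (4.89-fold). The next, at chromosome 10, 110134099 to 110134298, was 1960 kb away with 14 fragments (4.08-fold). A pair on chromosome 2, at 5832028 to 5832231 and 5832414 to 5832626, stood 1320 kb away with 15 and 19 fragments (4.08-fold and 5.44-fold), and one at chromosome 10, 10301233 to 10301432, was 1290 kb away with 13 (3.81-fold). Of the 28 peaks beyond 500 kb, 78.6% were at the background input level, against 31.2% of those at 5 to 10 kb.

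The widest of the distant peaks were of moderate height. They were at chromosome 19, 812707 to 813970 (1264 bp, 19 fragments, 4.51-fold), chromosome 22, 46510290 to 46511498 (1209 bp, 18 fragments, 5.16-fold) and chromosome 11, 61623306 to 61624314 (1009 bp, 20 fragments, 5.71-fold). Those at chromosome 7, 766030 to 766928 (899 bp, 26 fragments, 5.86-fold) and chromosome 6, 33267017 to 33267805 (789 bp, 20 fragments, 5.71-fold) came next. In all, 74 of the distant peaks (3.43%) were wider than 500 bp, against 6.26% of the close peaks and 1462 of the 6655 common peaks.

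The IgG library gave a second view of the same DDX5 library, one that the choice of the peaks did not use. Of the 2157 distant peaks, 8 overlapped a DDX5 peak called over IgG (0.371%, interval 0.160% to 0.729%), where all DDX5 peaks together had 0.511%. The share was 0.205% (0.0559% to 0.524%) for close and 0.646% (0.468% to 0.869%) for common peaks. The interval of the distant peaks covered the shares of both other classes, and no difference between classes was tested. Without the chromosome 14 stretch, 3 of 2151 distant peaks were called over IgG (0.139%, 0.0288% to 0.407%).

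No peak with fewer than 19 fragments over input was called over IgG in any class, and only 681 of the distant peaks (31.6%) had that many, against 44.6% of close and 75.5% of common peaks. Among peaks of at least 19 fragments, 8 of 681 distant (1.17%, 0.508% to 2.30%), 4 of 870 close (0.460%, 0.125% to 1.17%) and 43 of 5027 common peaks (0.855%, 0.620% to 1.15%) were called over IgG. The other 1476 distant peaks had fewer fragments than any peak called over IgG. The value of 19 is the lowest among the called peaks, not a measured limit of detection. It was set by a distant peak, on chromosome 7, and by construction it keeps the called peaks of every class. Only the denominators of these shares thus differ from those given before.

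The 8 distant peaks that were called over IgG had high folds there. Their folds over IgG were 5.01 to 15.8, against 1.62 to 3.74 for the 48 DDX5 peaks over IgG that overlapped a common peak, so these sets did not overlap. The 4 close DDX5-only peaks called over IgG, at 4.07 to 6.79, also lay above all 48. These 48 fell on the 43 common peaks named before, since a wide peak over input can hold more than 1 peak over IgG. The IgG level at the 8 was 2.67 to 7.0 fragments with a median of 4.0, at the 4 close peaks it was 2.67 to 6.60, and at the 48 it was 6.80 to 133 with a median of 22.5. Pileups ran the other way, at 18.9 to 93.8 with a median of 32.4 for the 8, and 24.9 to 216 with a median of 61.9 for the 48. Of the 61 DDX5 peaks over IgG, 11 were of at least 5-fold. They were these 8, the 2 close peaks of the chromosome 14 stretch, and 1 on chromosome 17 at 7653619. The chromosome 17 peak had 5.12-fold and matched no DDX5 call against input, but it sat on Fra-1 sites called with either control. A fold this high was thus not confined to places away from Fra-1. IgG level and fold share a denominator, so part of the contrast between the 8 and the 48 follows from how the values are made. The 8 are also only those that passed the call over IgG, and 5 of them lie in the chromosome 14 stretch. At a low IgG level even the lowest pileup of the list gives a high fold. On chromosome 7, 18.9 fragments over an IgG level of 2.67 gave 5.43-fold. What the call itself adds to the contrast was not tested.

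On chromosome 14 the 5 folds over IgG were 15.8 at 64727036, 11.1 at 64749254, 10.2 at 64746618, 5.99 at 64701639 and 5.59 at 64735417, over IgG levels of 5.0, 6.0, 2.82, 7.0 and 4.0. The summits in both DDX5 lists lay at most 8 bp apart there. The order of the 5 differed between controls, since the peak at 64746618 had 7.37-fold over input and 10.2-fold over IgG while that at 64701577 had 13.0-fold over input and 5.99-fold over IgG.

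Away from chromosome 14 the other 3 were smaller. The peak at chromosome 7, 126987770 to 126988012, had 19 fragments, 4.51-fold over input and 5.43-fold over IgG. At chromosome 9, 140311890 to 140312222, there were 25 fragments, 4.23-fold over input and 5.19-fold over IgG. At chromosome 9, 140069539 to 140070288, there were 24 fragments, 6.80-fold over input and 5.01-fold over IgG. The IgG level at these 3 was 2.67, 4.0 and 3.98 fragments. In fold over IgG these 3 peaks lay above all 48 DDX5 peaks over IgG that overlapped a common peak. So did the chromosome 14 peaks and the 4 close DDX5-only peaks, of which those away from chromosome 14 had 4.45-fold and 4.07-fold. Common peaks that were not called over IgG have no fold over IgG.

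**Figure D3:**
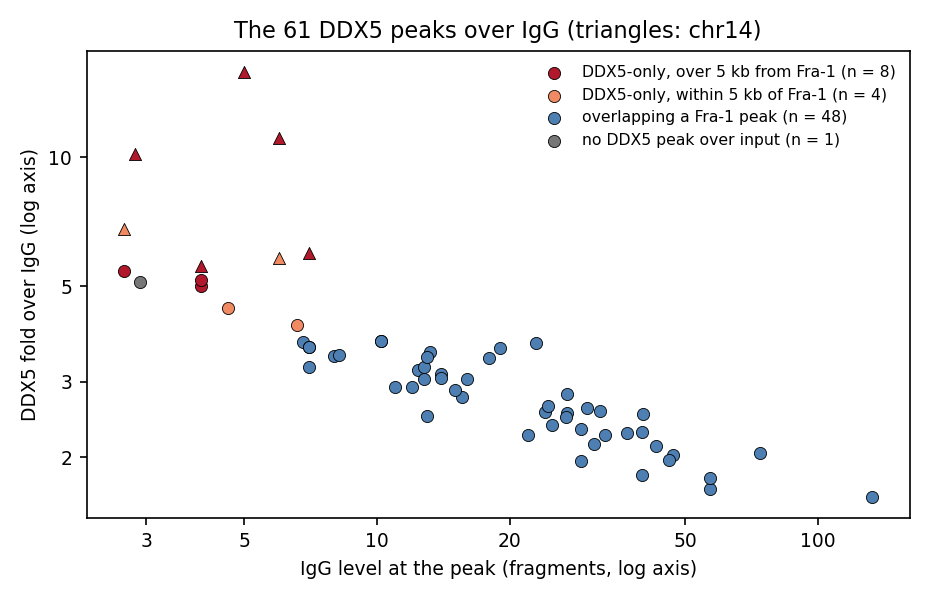
Fold over IgG against IgG level in fragments, both on log axes, for the 61 DDX5 peaks called over IgG, coloured by the class of the DDX5 peak over input they overlap, with triangles for chromosome 14. The 8 distant peaks lie at 5.01-fold to 15.8-fold and IgG levels up to 7.0, the 4 close ones at 4.07-fold to 6.79-fold, and the 48 common ones at 1.62-fold to 3.74-fold.

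No distant peak overlapped a Fra-1 peak called over IgG. This is 0 of 2157, which allows a share of up to 0.139% (3 counts of the total), where all DDX5 peaks together had 13.2% and the common ones 21.4%. Only 2.32% of the Fra-1 peaks over IgG (374) had no Fra-1 peak over input, so the rule leaves little room for such overlap and nothing is read from the 0. The close DDX5-only peaks also had none. By midpoint, 2 distant peaks had a Fra-1 peak over IgG within 5 kb, against 372 close (19.1%) and 2111 common peaks (31.7%). The median distance to the nearest Fra-1 peak over IgG was 92.6 kb, 40.2 kb and 32.0 kb in these classes. Since nearly all Fra-1 peaks over IgG overlap one over input, the rule also bears on these counts and distances. Nothing is read from their differences.

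The Fra-1 peaks nearest to the distant DDX5 peaks had a lower median fold than all Fra-1 peaks, with broadly overlapping ranges. The 2157 peaks shared 1761 distinct nearest Fra-1 peaks, which had a median fold over input of 4.68 (3.73 to 6.57), against 5.38 (4.0 to 9.08) for all 30405 Fra-1 peaks over input on these chromosomes. Of the 1761, 562 were called over IgG (31.9%, 29.7% to 34.1%), against 50.6% (50.1% to 51.2%) of all Fra-1 peaks over input. The rule bears on which Fra-1 peaks are nearest to a distant peak, and what that adds to these differences was not tested.

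Most of the distant peaks stood alone. When distant peaks at most 12.5 kb apart were joined, 1695 (78.6%) had no other distant peak in their group, 284 were in pairs and 178 (8.25%) were in 49 groups of 3 or more. The nearest other DDX5 peak of any class was a median of 36.9 kb away, against 1.09 kb for close and 10.1 kb for common peaks. No other DDX5 peak lay within 100 kb of 665 distant peaks (30.8%), against 7.74% of close, 19.4% of common and 19.6% of all DDX5 peaks. At the other extreme, 232 distant peaks (10.8%) had another DDX5 peak within 1 kb, against 29.2% of all DDX5 peaks. The rule itself keeps distant peaks away from the common peaks, which sit on Fra-1 peaks, and places close peaks near Fra-1. What that adds to these distances was not tested, and the grouping was not run on all DDX5 peaks.

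The fullest group was at chromosome 19, 4086251 to 4098092, where 10 distant peaks lay within 11.8 kb. In order along the chromosome their pileups were 11, 18, 16, 21, 16, 13, 18, 15, 14 and 18 fragments, and their folds 3.26 to 5.98. The highest, of 21 fragments, was at 4087884 to 4088377. The first 6 stood within 4086251 to 4089491 and the other 4 within 4094115 to 4098092. At 9 of the 10 the input level was at background, and no Fra-1 peak and no other DDX5 peak lay inside the group. The rule leaves little room for Fra-1 peaks, or for common peaks, within so tight a group, so nothing is read from their absence. The nearest Fra-1 peaks were 26.1 to 30.9 kb away, and none of the 10 was called over IgG.

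The next group held 6 peaks on chromosome 16, from 1819168 to 1828111. All 6 were at the background input level, with pileups of 14 to 23 and folds of 4.08 to 6.52 (median 4.89). Groups of 5 lay at chromosome 14, 105260205 to 105262582 (within 2.38 kb), chromosome 17, 74068458 to 74078396, chromosome 19, 55897274 to 55904489, and chromosome 22, 41913826 to 41924806. Their median folds were 4.08, 4.04, 4.08 and 4.08, and their pileups 12 to 24. All of these groups were free of Fra-1 peaks and of other DDX5 peaks, which again follows largely from the rule. The distant peaks on chromosome 14 between 64727021 and 64749783 formed a group of 4 with a median fold of 14.3, well above every other group of 4 or more, whose medians ran from 1.44 to 4.89.

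Distant peaks were gathered near chromosome ends, as were close DDX5-only peaks. Ends were taken as the first and last peak of any list on the chromosome, and for chromosomes whose short arm is not assembled the first peak is near the centromere. Within 5 Mb of an end lay 533 distant peaks (24.7%, 22.9% to 26.6%), 27.5% (25.6% to 29.6%) of close and 16.6% (15.7% to 17.6%) of common peaks. For Fra-1 peaks the share was 9.98% (9.64% to 10.3%) over input and 6.64% (6.26% to 7.03%) over IgG. Within 10 Mb the shares were 34.3%, 36.4%, 25.2%, 18.0% and 14.2% in the same order. The rule itself puts distant peaks where Fra-1 peaks are sparse, and what that adds to these shares was not tested.

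**Figure D4:**
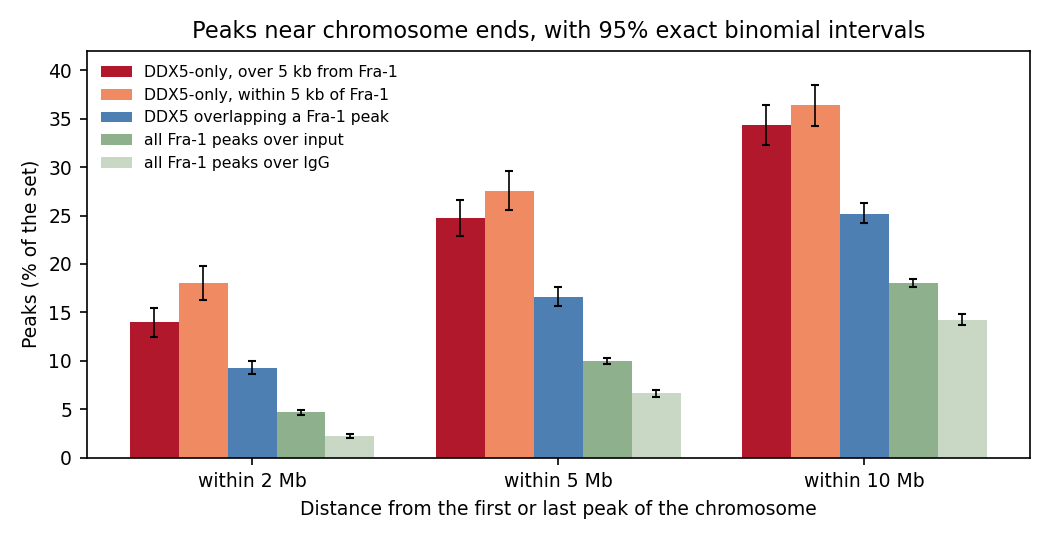
Share of each set of peaks in percent (bars, with 95% exact binomial intervals) within 2, 5 and 10 Mb of the first or last peak of its chromosome. Both DDX5-only classes stand above the common peaks at each distance, for example 24.7% and 27.5% against 16.6% within 5 Mb, and the Fra-1 lists are lowest.

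The share of DDX5 peaks that were distant from Fra-1 varied between chromosomes. It was highest on chromosome 21, with 31 of 80 DDX5 peaks (38.8%, 28.1% to 50.3%), followed by chromosome 16 with 120 of 443 (27.1%, 23.0% to 31.5%). Chromosomes 14 and 15 had 25.1% and 24.9%, with intervals that overlap those of chromosome 16. The lowest shares were 15.2% on chromosome 5 (12.3% to 18.4%), 15.6% on chromosome 4 and 15.8% on chromosome 20 (12.8% to 19.1%). For most chromosomes the interval covered the 20.0% of the whole list.

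In number, chromosome 1 held the most distant peaks with 244, followed by chromosome 19 with 196 (9.09% of them), chromosome 17 with 161 and chromosome 9 with 150. Chromosome 19 is known as the most gene-dense human chromosome. It held 11.0% of the close and 6.76% of the common peaks. For every 100 Fra-1 peaks over input there were 17.9 distant DDX5 peaks on chromosome 19, 15.0 on chromosome 22 and 14.4 on chromosome 16, against 2.47 on chromosome 4, 3.0 on chromosome 13 and 3.38 on chromosome 18. DDX5 peaks of all classes also differed, with 861 beside 1093 Fra-1 peaks on chromosome 19 and 199 beside 1255 on chromosome 4. Of the DDX5 peaks, 22.8% (20.0% to 25.7%), 23.1% and 27.1% were distant on chromosomes 19, 22 and 16. On chromosomes 4, 13 and 18 these shares were 15.6%, 16.4% and 20.7%, against 20.0% of the whole list.

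On chromosome 21, 20 of the 31 distant peaks (64.5%) were at the background input level, and their pileups ran from 11 to 65 with a median of 16. Of the 31, 13 lay between 45 and 46 Mb, where they made up 68.4% of 19 DDX5 peaks. Groups of 4 stood there at 45186759 to 45196769 and 45748219 to 45751653, with median folds of 4.35 and 3.81.

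Chromosomes where the DDX5 peaks had a low median input level tended to have larger shares of distant peaks. The median input level of all DDX5 peaks was 2.68, the background, on chromosomes 2 and 21, where 23.7% and 38.8% were distant. It was highest on chromosomes 8 (6.01) and 20 (5.49), where 16.8% and 15.8% were. Over the 23 chromosomes the share and the median input level had a Spearman rho of -0.70 and a Pearson r of -0.59, and -0.65 and -0.63 over the 22 without chromosome 21. All points come from the same DDX5 and input libraries, and the input level also enters the calling of the peaks, so this is a description. The median is taken over all DDX5 peaks, the distant ones included, and these had lower input levels than the other classes. A larger share of distant peaks can thus itself lower the median, and what that adds to the relation was not tested.

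**Figure D5:**
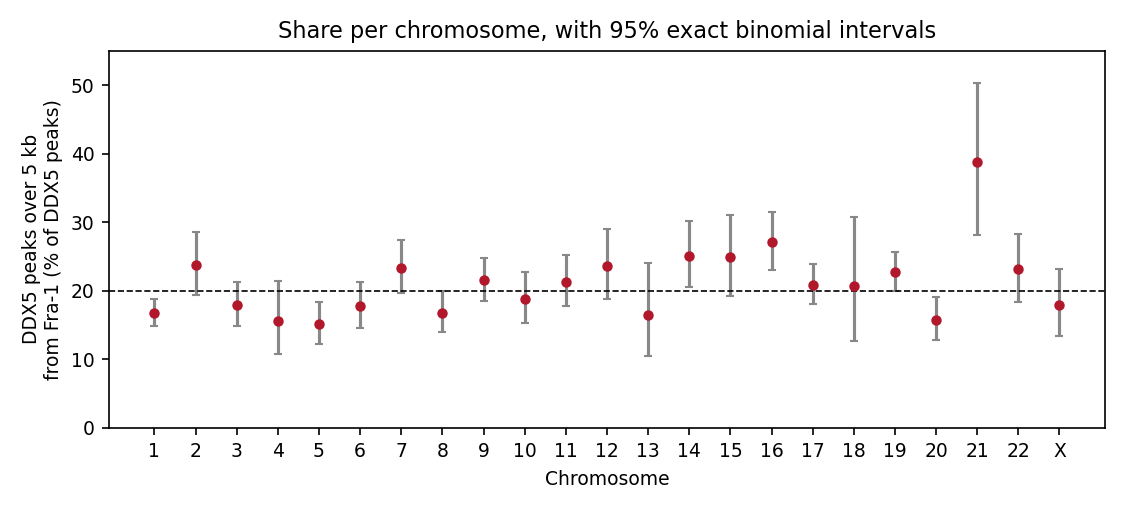
Share of the DDX5 peaks over input on each chromosome that were distant from Fra-1, in percent (points, with 95% exact binomial intervals), with the 20.0% of the whole list as a dashed line. Chromosome 21 is highest at 38.8%, chromosome 16 follows at 27.1%, and chromosomes 5, 4 and 20 are lowest at 15.2% to 15.8%.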

How the data were processed

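Per the submitters' processing notes, CASAVA 1.8, Bowtie 0.12.9, HOMER and the build hg19 were used, without the role of each. The sources name no peak caller, and the column set matches that of MACS2. A list rests on 1 ChIP and 1 control library, with no pooling. The deposited pileup is a signal, the fragments of the ChIP library that cover the summit, in whole fragments over input and scaled to the IgG library over IgG. The fold enrichment is a ratio, per the file headers. The −log10 p and −log10 q columns have damaged headers in the deposited lists and were identified by their order and values.

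The input or IgG level was computed as the pileup plus 1 over the fold, minus 1. Input levels within 0.001 of the lowest were counted as background. Overlap needed at least 1 bp. Shares have 95% exact binomial (Clopper-Pearson) intervals, and a count of 0 allows up to 3 counts; both cover counting error only. The tools were matplotlib 3.10.9, scipy 1.17.1, pandas 2.3.3 and numpy 2.4.6 under Python 3.11.15. The classification, distance and grouping steps were tested on simulated data. Named peaks were the 25 of highest −log10 q, every distant peak called over IgG, the 5 farthest, the 5 widest, the 5 on either side of the limit and the 5 fullest groups, with the other groups of 5 kept because they tie. The peaks with an input level of at least 50, chromosome 21 and the stretches near chromosome ends were singled out after their values were seen. The class of peaks and all rules were chosen with earlier results of these data known. Genes, promoters and motifs at the peaks, and their sequences, were not analysed here, because no hg19 genome or annotation was used.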

Additional observations from a re-analysis of the deposited data

How the results depend on the processing

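Of 27 alternatives, 16 left the reported value within its interval or, for the number of peaks, within 1.5 times of it, and 11 moved it. The number of distant DDX5-only peaks, 2157, was 2609 and 1785 with limits of 2 and 10 kb, and became 715 with a limit of 50 kb, 1053 with DDX5 peaks of at least 4-fold, 576 with DDX5 peaks at or above the list's median −log10 q, and 3982 when only Fra-1 peaks of at least 4-fold counted as Fra-1 sites. The share called over IgG, 0.371%, became 0.760% with peaks of at least 4-fold and 0.139% without the peaks within 1 Mb of the leading one on chromosome 14. The share in groups of 3 or more, 8.25%, became 5.66% with joining at 5 kb and 16.9% at 50 kb. The share on chromosome 19, 9.09%, became 10.8% with peaks of at least 4-fold. The share at the background input level, 35.4%, became 47.0% with peaks of at least 4-fold and 38.8% without chromosomes 8 and 20; these alternatives, and those of the share near chromosome ends, were added after the data were seen. Stricter limits and DDX5 thresholds lower the number of peaks by construction, and a stricter Fra-1 threshold raises it by construction. The share of 0.760% is of the same 8 peaks among 1053, and leaving out the chromosome 14 stretch takes away 5 of the 8. Joining over a longer distance can only enlarge groups. For the other moves the cause was not tested. In the order distant, close and common, the shares at background were 35.4%, 19.4% and 11.5%, and with peaks of at least 4-fold 47.0%, 28.8% and 15.9%. Within 5 Mb of an end they were 24.7%, 27.5% and 16.6%, and with peaks of at least 4-fold 26.5%, 31.3% and 17.9%. Other settings for distances to transcription start sites and for AP-1 motifs were not run, since no hg19 genome or annotation was used. No paired analysis was possible because each antibody has 1 library and the labels give no replicate numbers.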

Other observations

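Counted in windows of 1 Mb, the distant DDX5-only peaks were most numerous on chromosome 16 between 2 and 3 Mb and on chromosome 9 between 139 and 140 Mb, with 17 each. On chromosome 16 these were 17 of the 34 DDX5 peaks of the window, 14 of the 17 were at the background input level, and the window held 19 Fra-1 peaks over input. On chromosome 9 they were 24.3% of 70 DDX5 peaks, 5 of the 17 were at background, and there were 48 Fra-1 peaks. The next windows were chromosome 19 between 4 and 5 Mb with 16 distant peaks of 42 DDX5 peaks, chromosome 1 between 2 and 3 Mb with 14 of 21 (66.7%), and chromosome 14 between 105 and 106 Mb with 14 of 30. The median fold of the distant peaks in these 5 windows was 3.83 to 4.21, close to the 3.97 of all of them. None of these windows holds the strong peaks of chromosome 14 described above.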
